A study of Mus musculus with 4 samples.

Results

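Integrins and adhesion receptors were examined in sorted mouse B cells as a set of 9 listed genes, the integrin α subunits Itgal, Itgam, Itgax and Itga4, the β subunits Itgb2, Itgb1 and Itgb7, the hyaluronan receptor Cd44 and the sialomucin Spn (CD43). The genes were taken by name, and all 9 were found among the 20599 gene symbols of the quantified transcriptome. An integrin is a dimer of an α and a β chain that reaches the cell surface only as a pair, so the supply of each partner limits which dimers a cell can display. On lymphocytes, β2 integrins bind ICAMs and complement fragments, and α4 integrins bind VCAM-1, fibronectin and the mucosal addressin MAdCAM-1. B1a cells are self-renewing, innate-like B cells of the body cavities, whereas follicular B2 cells recirculate between blood and the follicles of lymphoid organs.

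RNA-Seq had been performed on wild-type C57BL/6 mice, with 2 libraries of peritoneal B1a cells and 2 libraries of splenic follicular B2 cells. The sample labels give an age of 4 weeks for all libraries, and a supplementary legend gives the same age for the RNA-Seq reads of both cell types. The methods instead give 8 weeks for the B2 donors, so cell type, tissue and possibly age cannot be told apart. The methods describe the sorts with CD23- IgM+ CD5+ among the criteria for B1a cells and IgDhi IgMlo CD21+ among those for B2 cells, and elsewhere describe B1a cells by surface CD43 or CD11b, the products of Spn and Itgam. Since it is not certain that the RNA-Seq sort ignored these proteins, the values of both genes describe the sorted populations. The methods name 2 control mice for each cell type, and the supplementary legend gives 2 animals each. Neither ties each library to a mouse, so the p-values measure the spread between these libraries, which may be technical.

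The libraries held between 11032732 and 18588623 counts, and levels are given as CPM, counts scaled by TMM to a common library size. A floor of 3 counts was used, which equals 0.157 to 0.270 CPM. All 9 genes lay above this floor in every library. The B1a replicates correlated less closely with each other (Pearson r across genes of log2 CPM, 0.816) than the B2 replicates (0.959), and genes are not independent replicates. All 10 pan-B-cell markers exceeded 3 counts in every library, and of these the test called 3 in favour of B1a cells and 3, among them Pax5, in favour of B2 cells. The sum of 5 B1a genes was 896 and 784 CPM in B1a cells against 46.9 and 38.4 CPM in B2 cells, whereas Fcer2a (CD23), a gene of follicular cells, measured 63.7 and 61 against 934 and 896 CPM and Cr2 (CD21) 98.4 and 92 against 968 and 1045 CPM. By these genes, some of them sort markers, the libraries followed their labels, although Cxcr5, also typical of follicular cells, was higher in B1a cells. Ccr7, listed with the follicular genes, overlapped, with 219 and 176 CPM in B1a cells and 162 and 194 CPM in B2 cells. Of the B1a genes, Cd5 was higher in both B1a libraries (15.9 and 22.4 against 5.46 and 2.25 CPM) but was not called.

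Of the 9 genes, 5 were higher in B1a cells at an adjusted p below 0.05 (edgeR's quasi-likelihood test, Benjamini-Hochberg adjustment over 12078 tested genes), namely Itgam, Itgb1, Spn, Cd44 and Itgb7. Among all tested genes, 4.24% were called higher in B1a cells, 1.5% higher in B2 cells and 5.74% in either direction. The 9 genes were chosen with earlier results of these data known, and Spn and Itgam may have been sort markers. Their calls were therefore not tested as a set against these shares. None of the 9 was called higher in B2 cells. The median log2 fold change of B1a over B2 cells was 1.81 for the 9 genes and -0.03 for all tested genes. Both B1a libraries exceeded both B2 libraries for 8 of the 9 genes, an order that 25.3% of tested genes showed, and Itgax had the opposite order, which 29.0% showed. In sorted populations analyzed in bulk, fewer cells of a type and less RNA per cell cannot be told apart.

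**Figure D1:**
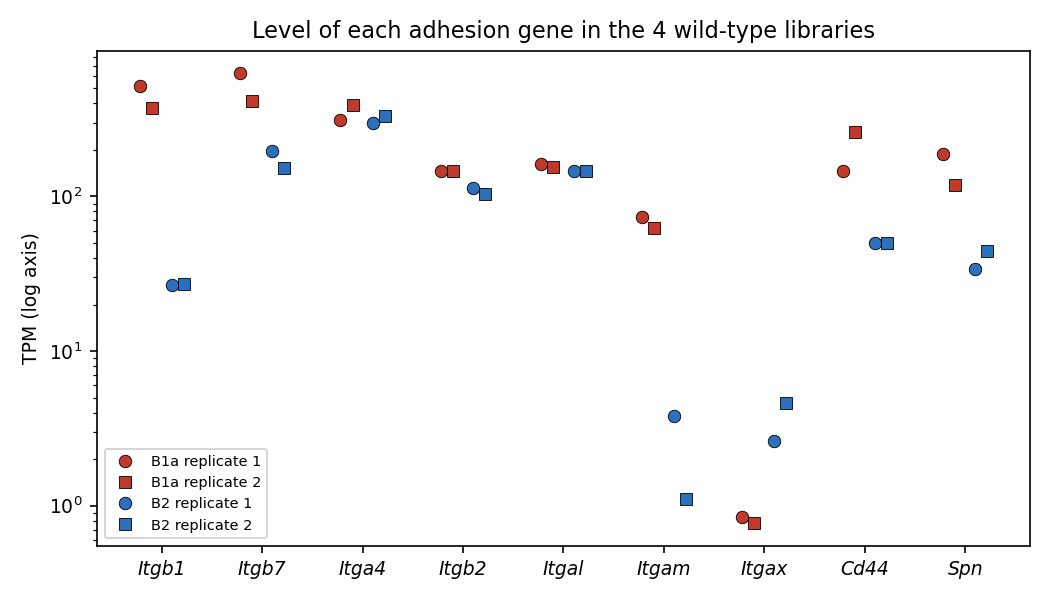
The plot shows the TPM (a level corrected for transcript length) of each gene on a log axis, with 1 point per library and no averaging. Itgb1, Itgb7, Cd44, Spn and Itgam separate between red (B1a) and blue (B2) points, Itgal and Itga4 lie close together in both cell types, and Itgax stays below 5 TPM in every library.

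The 9 genes were ranked by TPM, in which a longer transcript does not give a higher value. In B2 cells the highest level was that of Itga4, at 316 ± 21.5 TPM (SD, n = 2), followed by Itgb7 (175 ± 30.9), Itgal (146 ± 1.15), Itgb2 (108 ± 6.93), Cd44 (50.1 ± 0.156), Spn (39.1 ± 7.21), Itgb1 (26.8 ± 0.212), Itgax (3.60 ± 1.41) and Itgam (2.46 ± 1.92). Each neighbouring pair in this order was separated in both libraries, except Itgax and Itgam. In B1a cells Itgb7 and Itgb1 came first, at 520 ± 152 and 444 ± 103 TPM, ahead of Itga4 (349 ± 55.0), Cd44 (205 ± 82.5), Itgal (159 ± 5.40), Spn (153 ± 48.6), Itgb2 (147 ± 0.537), Itgam (68.1 ± 8.51) and Itgax (0.805 ± 0.0495). The ranges of Itgb7 and Itgb1, of Itgb1 and Itga4, and of each neighbouring pair from Cd44 to Itgb2 overlapped. Within each B1a library Itgb7 exceeded Itgb1 (627 against 517 TPM, and 412 against 371 TPM). The other overlapping pairs changed order between the 2 libraries, so their order was not resolved. Itga4 stood apart from Cd44, Itgb2 from Itgam, and Itgam from Itgax.

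**Figure D2:**
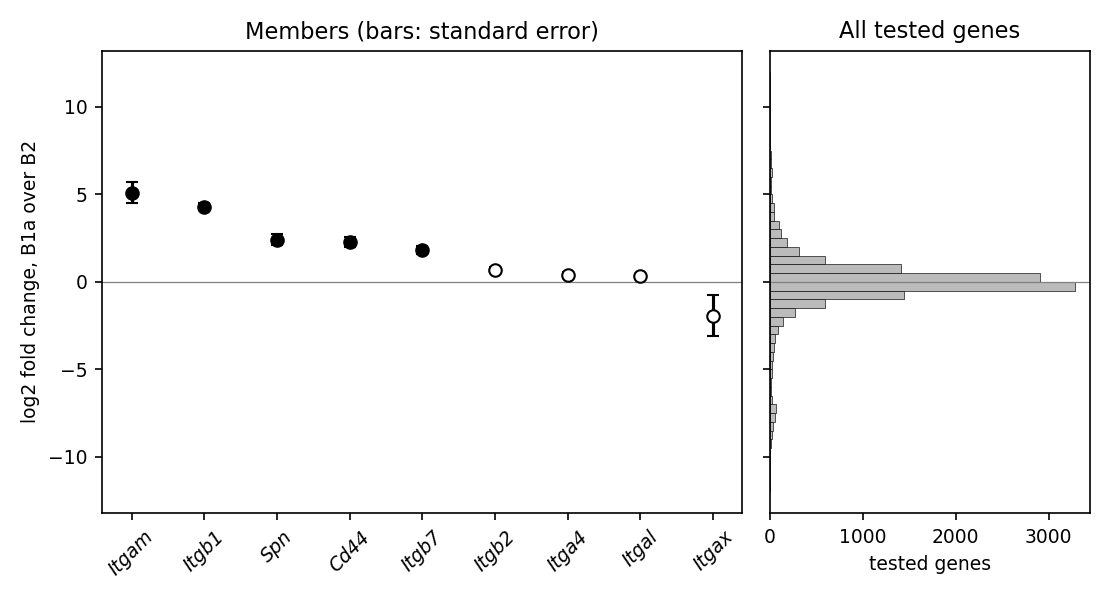
The left panel shows the log2 fold change of B1a over B2 cells for each gene with its standard error (filled circles, adjusted p below 0.05; open circles, not below), and the right panel shows the number of tested genes at each log2 fold change on the same vertical axis. Itgam (5.10) and Itgb1 (4.29) lie far above the bulk of the 12078 tested genes, whereas Itgal and Itga4 (0.36 and 0.39) lie within it.

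Among the α chains that pair with β2, Itgam changed most. Itgam encodes αM, or CD11b, which with β2 forms complement receptor 3 (Mac-1) on myeloid cells and on body-cavity B1 cells. It measured 148 and 127 CPM in the B1a libraries and 6.42 and 1.88 CPM in the B2 libraries. The B2 values rest on 74.5 and 36.4 expected counts and differed 3.41-fold from each other, and still lay far below both B1a values. Itgam was 34.2-fold higher in B1a cells (log2 fold change 5.10, SE 0.59, adjusted p = 0.00842), the largest fold change of the 9 genes. It lies at chr7:128062640-128118491 on the plus strand of GRCm38, and an annotated gene on the same strand, Gm49368, which has no entry of its own in the count files, shares 3450 of its 5024 exon bases. The reads of these genes could therefore not be separated.

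Itgax, the neighbouring gene on chromosome 7 (chr7:128129526-128150657, plus strand), encodes αX, or CD11c, typical of dendritic cells. It was scarce in all libraries, with 1.43 and 1.35 CPM in B1a cells and 3.82 and 6.80 CPM in B2 cells. Both B2 libraries were higher, but the change was not significant (log2 fold change -1.92, SE 1.19, adjusted p = 0.442). Itgal, which encodes the αL chain of LFA-1 (CD11a; chr7:127296139-127335137, plus strand), was plentiful and nearly equal, with 362 and 354 CPM in B1a cells and 279 and 280 CPM in B2 cells. Its replicates almost coincided within each cell type and the groups did not overlap, but the difference of 1.28-fold did not pass the test (log2 fold change 0.36, SE 0.11, adjusted p = 0.155). The shared β chain, Itgb2 (CD18; chr10:77530329-77565708, plus strand), measured 177 and 182 CPM in B1a cells and 116 and 108 CPM in B2 cells. At 1.60-fold (log2 fold change 0.68, SE 0.15), it narrowly missed the threshold with an adjusted p of 0.0579, and it passed in 8 of 15 alternative settings.

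The TPM shares of the α chains that pair with β2 differed between these B1a and B2 libraries. Of the summed TPM of Itgal, Itgam, Itgax and Itgad (αD), Itgam held 31.2% and 28.3% in the B1a libraries and 2.42% and 0.718% in the B2 libraries. Itgal held 68.4% and 70.5% in B1a cells and 93.3% and 94.8% in B2 cells, and was the most abundant α transcript of the family in every library. Itgax (0.354% and 0.351% against 1.65% and 3.0%) and Itgad made up the rest. The share of Itgam was higher in B1a cells by 28.2 percentage points, with a two-sided exact permutation p of 0.333, the smallest that 2 against 2 libraries allow. The summed α transcripts amounted to 1.62 and 1.49 times the TPM of Itgb2 in B1a cells and 1.39 and 1.48 times in B2 cells, a narrow range beside that of the Itgam share.

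The opposite order of Itgam and Itgax, next to each other on chromosome 7, and the unequal change of Itgb1 and Itgb7 are the reason for showing the promoter windows of these 4 genes. Each window is from RefSeq on GRCm38.p6 and runs 5′ to 3′ on the strand of the gene from 250 bases before to 50 bases after the annotated start. Capitals mark GAGGAA or its reverse complement TTCCTC, the core recognized by PU.1, an ETS factor of myeloid and B cells. The windows are chr7:128062390-128062689 (plus strand) for Itgam, chr7:128129300-128129599 (plus strand) for Itgax, chr8:128685404-128685703 (plus strand) for Itgb1 and chr15:102231886-102232185 (minus strand) for Itgb7. The Itgb7 window lies inside the gene span given below for Itgb7, and not at the outermost start of that span.
Itgam: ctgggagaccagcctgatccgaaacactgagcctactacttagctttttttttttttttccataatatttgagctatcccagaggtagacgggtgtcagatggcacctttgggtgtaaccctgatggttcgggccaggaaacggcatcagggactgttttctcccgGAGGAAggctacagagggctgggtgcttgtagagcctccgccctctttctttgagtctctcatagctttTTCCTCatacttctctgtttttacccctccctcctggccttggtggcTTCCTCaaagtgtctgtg
Itgax: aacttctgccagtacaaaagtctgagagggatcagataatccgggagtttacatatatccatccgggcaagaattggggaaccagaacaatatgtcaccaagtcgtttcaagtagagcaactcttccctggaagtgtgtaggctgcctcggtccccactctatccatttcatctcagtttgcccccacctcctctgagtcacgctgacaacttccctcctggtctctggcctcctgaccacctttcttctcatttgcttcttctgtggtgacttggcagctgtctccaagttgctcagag
Itgb1: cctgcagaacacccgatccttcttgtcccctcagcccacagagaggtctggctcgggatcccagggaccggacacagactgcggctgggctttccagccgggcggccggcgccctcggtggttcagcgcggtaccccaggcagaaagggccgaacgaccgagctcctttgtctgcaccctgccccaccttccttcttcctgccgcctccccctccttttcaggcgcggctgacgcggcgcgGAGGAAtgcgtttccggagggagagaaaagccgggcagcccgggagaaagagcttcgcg
Itgb7: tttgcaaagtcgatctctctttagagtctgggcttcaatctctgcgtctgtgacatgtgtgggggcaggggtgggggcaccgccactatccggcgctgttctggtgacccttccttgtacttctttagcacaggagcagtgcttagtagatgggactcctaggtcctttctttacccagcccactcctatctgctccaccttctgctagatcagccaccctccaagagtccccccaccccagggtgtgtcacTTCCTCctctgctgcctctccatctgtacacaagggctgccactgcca

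The window of Itgam held 3 copies of the PU.1-type core, beginning at -84, -15 and 33 relative to the start, and that of Itgax held none. Itgb1 and Itgb7 held 1 copy each, beginning at -9 and 3. Among 32851 promoter windows of the same length, 28.3% held at least 1 copy on either strand. Of the 7 listed genes with a window, Cd44 also held it, and Itga4 and Spn did not. The GC box GGGCGG, searched on both strands, occurred in the windows of Itga4, Cd44, Itgam and Itgb1, and in 35.7% of all windows. TGTGGT, the core bound by RUNX factors, occurred in Itga4 and Itgax and in 16.8% of all windows, and the AP-1 motif TGANTCA occurred in Itgax alone of the 7 genes, and in 7.81% of all windows. Itgb1 had the densest CpG content, with 27 CpG dinucleotides against a median of 7 over all windows, and 15.5% of windows had at least as many. The other 6 genes held between 3 and 10. A match of letters is a description and not a measured site.

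Turning to the α4 integrins, both β partners of α4 rose in B1a cells while α4 itself did not pass the test. Itgb1 encodes β1, the common partner of many α chains for fibronectin, laminin, collagen and, with α4, VCAM-1 (chr8:128685654-128733579, plus strand). It measured 923 and 680 CPM in B1a cells and 40.5 and 41.6 CPM in B2 cells. Every B1a value was more than 10 times every B2 value, and Itgb1 was 19.5-fold higher (log2 fold change 4.29, SE 0.19, adjusted p = 0.000622), the smallest adjusted p of the 9 genes. Itgb7 encodes β7, which with α4 forms the receptor for MAdCAM-1 (chr15:102215994-102233405, minus strand). It measured 707 and 476 CPM in B1a cells and 188 and 149 CPM in B2 cells, and was 3.51-fold higher in B1a cells (log2 fold change 1.81, SE 0.23, adjusted p = 0.0108). Its groups did not overlap, although the B1a replicates differed 1.48-fold.

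Itga4 (CD49d; chr2:79255426-79333114, plus strand) measured 1312 and 1682 CPM in B1a cells and 1080 and 1208 CPM in B2 cells. Both B1a values were higher, but the 1.31-fold difference was not significant (log2 fold change 0.39, SE 0.15, adjusted p = 0.212). This difference passed in 4 of 15 alternative settings. Cerkl, on the opposite strand, shares 1124 of the 13978 exon bases of Itga4, and measured at most 13.6 CPM. Whether counting used strand is not given in the sources used here, so a small part of the reads of Itga4 could belong to Cerkl.

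Of the summed TPM of Itgb1 and Itgb7, Itgb7 held 88.0% and 85.0% in the B2 libraries and 54.8% and 52.6% in the B1a libraries. The share of Itgb7 was thus lower in B1a cells, with a difference of -32.8 percentage points between the means and a two-sided exact permutation p of 0.333. In expected counts in place of TPM, this difference was -37.9 points, and that of the Itgam share among β2-pairing α chains was 26.1 points. Itgb1 and Itgb7 together amounted to 1145 and 784 TPM in B1a cells and 223 and 180 TPM in B2 cells. For every TPM of these β chains there were 1.35 and 1.84 TPM of Itga4 in B2 cells, and 0.271 and 0.495 in B1a cells. The transcripts of α4 thus exceeded those of both partners in both B2 libraries, and were exceeded by them in both B1a libraries. These are ratios of transcripts, and surface dimers were not measured in these libraries.

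**Figure D3:**
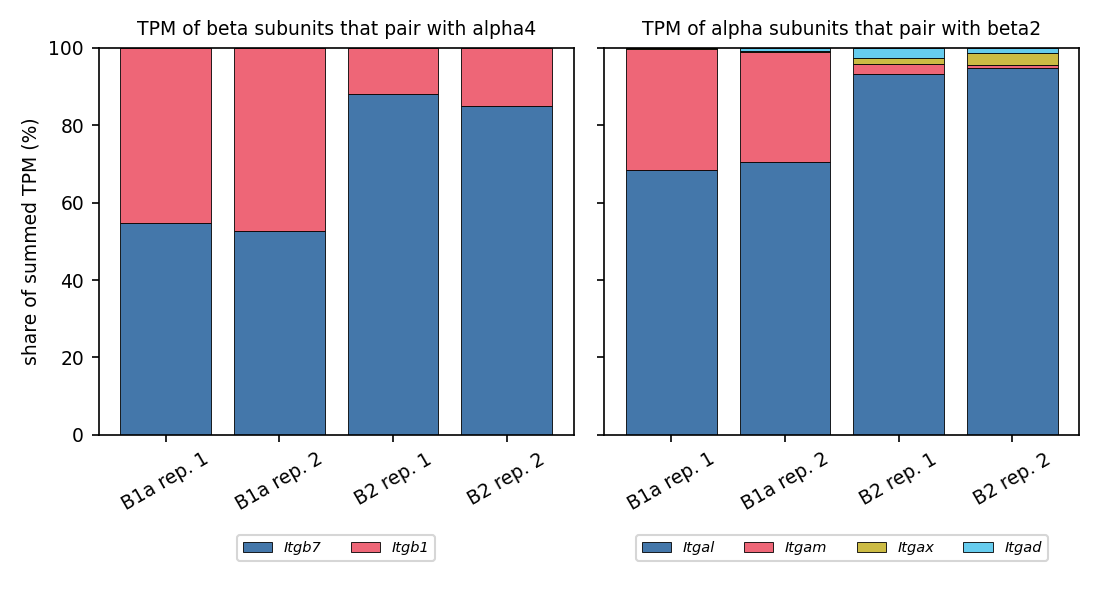
Stacked bars show, for each library, the percent of summed TPM held by Itgb7 and Itgb1 (left) and by Itgal, Itgam, Itgax and Itgad (right). The Itgb1 segment fills nearly the same part of a bar as Itgb7 in the B1a libraries and 12.0% to 15.0% in the B2 libraries, and the Itgam segment is visible mainly in the B1a libraries (31.2% and 28.3%).

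The non-integrin receptors also rose. Cd44, which binds hyaluronan and marks activated and memory lymphocytes (chr2:102811141-102901669, minus strand), measured 307 and 565 CPM in B1a cells and 86.4 and 92.6 CPM in B2 cells. Its B1a replicates differed 1.84-fold, but both were over 3 times either B2 value, and the 4.87-fold difference passed the test (log2 fold change 2.29, SE 0.30, adjusted p = 0.0118). Spn encodes CD43, a large sialylated mucin of the leukocyte surface that is low on resting B2 cells (chr7:127123637-127145552, minus strand). It measured 277 and 148 CPM in B1a cells and 36.9 and 42.8 CPM in B2 cells, 5.33-fold higher in B1a cells (log2 fold change 2.42, SE 0.32, adjusted p = 0.0131). Its B1a values differed 1.87-fold and did not overlap the B2 values. The effective length assigned to Spn from its 2 transcripts varied between 2585 and 3418 bases among the libraries, and this moves its TPM but not its counts.

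The 2 B1a libraries did not deviate in the same direction for all genes. Itgb1, Itgb7 and Spn were higher in the first, and Cd44 and Itga4 in the second, whereas Itgam, Itgal, Itgb2 and Itgax differed by at most 1.16-fold between them. Between the B2 libraries, the ratio of the higher to the lower value was at most 1.27 for every gene except Itgam (3.41) and Itgax (1.78), the 2 genes with the lowest levels.

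CD11b, CD11c and β7 are also borne by myeloid and mast cells, so markers of other cells were summed. The 15 macrophage markers summed to 247 and 288 CPM in the B1a libraries and 86.7 and 89.2 CPM in the B2 libraries, a ratio of 3.04. Of these, 12 exceeded 3 counts in both B1a libraries and 11 in both B2 libraries, and 7 were higher in both B1a libraries. That order was shown by 25.3% of all tested genes. Lyz2 alone of the macrophage markers passed the test. Lyz2, which encodes lysozyme, measured 127 and 136 CPM in B1a cells and 16.8 and 27.2 CPM in B2 cells. Csf1r, the receptor that macrophages depend on, measured 16.9 and 21.9 CPM in B1a cells and 21.2 and 18.3 CPM in B2 cells, and Emr1, which encodes F4/80, measured 27.7 and 39.0 against 8.24 and 11.9 CPM. Fcgr1 had 0 counts in both B1a libraries, and Timd4 and Gata6, which define resident peritoneal macrophages, reached at most 0.540 and 0.0899 CPM there. The part of macrophage RNA in the levels of the 9 genes was not tested.

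**Figure D4:**
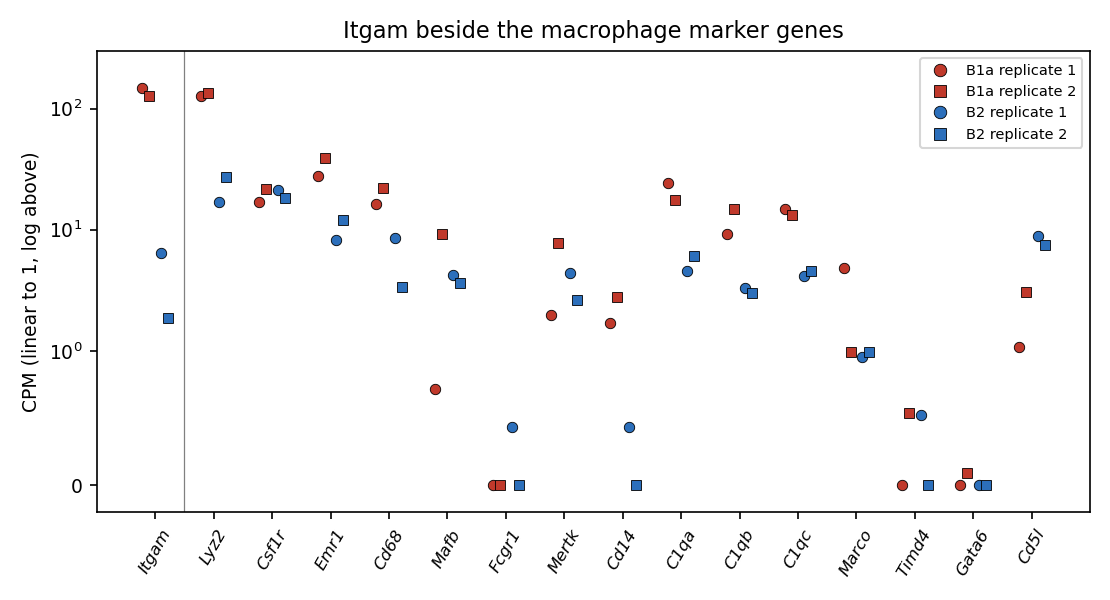
Points show the CPM of Itgam and of 15 macrophage markers in each library, on an axis that is linear up to 1 CPM and logarithmic above. Itgam (148 and 127 CPM) and Lyz2 are high in both B1a libraries, Csf1r is alike in all 4 libraries, and Fcgr1, Timd4 and Gata6 lie below 1 CPM throughout. Emr1, Cd68, Cd14, C1qa, C1qb and C1qc are also higher in both B1a libraries, and Cd5l is lower in both.

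The 7 mast-cell markers summed to 47.1 and 17.5 CPM in B1a cells and 6.68 and 4.55 CPM in B2 cells. Of these, 5 were higher in both B1a libraries and 1 passed the test, the mast-cell protease Cma1, with 22 and 4.68 CPM against 0 counts in both B2 libraries (adjusted p = 0.0499). Over all tested genes, 25.3% had that order and 4.24% were called higher in B1a cells. Fcer1a had 0 counts in every library. The part of mast cells in the levels of Itgb7, Cd44, Itga4 and Itgb1 was not tested. Erythroid genes summed to 78.8 and 504 CPM against 36.1 and 80.8 CPM, with the second B1a library the highest, and their part in these results was not tested. Neutrophil markers (338 and 207 against 315 and 294 CPM) were almost all Cxcr2 and the other 8 summed to at most 0.989 CPM in a B1a library. Markers of dendritic cells (18.6 and 33.5 against 45.1 and 28.9 CPM), NK cells (3.14 and 1.44 against 7.89 and 8.73 CPM), T cells (127 and 83.5 against 103 and 108 CPM), platelets (18.6 and 13.6 against 19.3 and 12.4 CPM) and mesothelium (0 in both B1a libraries, at most 0.607 CPM in B2 libraries) were not higher in both B1a libraries.

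Other integrin subunits moved less uniformly. Of 14 tested, 1 was higher in B1a cells, 1 was higher in B2 cells and 12 did not pass, with a median log2 fold change of -0.78. Over all tested genes, 4.24% and 1.5% were called in these directions, and the median was -0.03. The middle genes of this list had 0 CPM in the first B1a library and at most 4.53 CPM on average in either cell type. Its median thus rests on scarce genes. Itga6, the α chain of laminin receptors and a partner of β1, rose from 47.8 and 46.5 CPM in B2 cells to 119 and 101 CPM in B1a cells (log2 fold change 1.22, SE 0.20, adjusted p = 0.0268). Itgb3, a partner of αV in the vitronectin receptor, was lower in B1a cells, with 51.4 and 50.3 CPM in B2 cells against 2.78 and 1.08 CPM (log2 fold change -4.71, SE 0.56, adjusted p = 0.0089). Its partner Itgav measured 124 and 94.3 CPM in B1a cells and 95.3 and 106 CPM in B2 cells and did not pass (adjusted p = 0.821), and its sign turned negative on the TPM scale. Itga5, the α chain of the fibronectin receptor, measured 7.35 and 24.6 against 0.347 and 3.71 CPM (adjusted p = 0.269). Itga6 passed in 11 of 15 alternative settings and Itgb3 in 13 of 15.

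Of 9 tested genes for integrin ligands, 2 were higher in B1a cells and 1 in B2 cells (median log2 fold change 0.88). In all tested genes, 4.24% and 1.5% were called in these directions. The median of the list fell on a scarce gene, with 0 and 3.33 CPM in B1a cells against 0.694 and 1.10 CPM (adjusted p = 0.881). Fn1 encodes fibronectin, a ligand of α4β1, and measured 624 and 394 CPM in B1a cells and 5.99 and 11.9 CPM in B2 cells (log2 fold change 5.80, SE 0.42, adjusted p = 0.00226). F11r, which encodes JAM-A, a ligand of LFA-1, measured 14.9 and 14.3 CPM against 0.434 and 0.470 CPM (log2 fold change 4.98, SE 0.90, adjusted p = 0.0346). Vcam1, the main ligand of α4β1, had 0 counts in both B1a libraries and 8.50 and 13.3 CPM in B2 libraries, and was at least 40.4-fold lower in B1a cells, taking 3 counts per library as the floor (adjusted p = 0.0406). The ICAM ligands of LFA-1 did not pass, with 87.1 and 71.8 against 63.5 and 53.2 CPM for Icam1 (adjusted p = 0.343) and 78.4 and 27.7 against 63.3 and 59.4 CPM for Icam2 (adjusted p = 0.872). Fn1 passed in all 15 alternative settings, whereas F11r passed in 10 and Vcam1 in 8 of the 14 that tested them. Macrophages also express Fn1, and their markers summed 3.04 times higher in B1a libraries. Their part in the level of Fn1 was not tested, nor was the part of other cells in the level of Vcam1 in B2 libraries.

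Genes that switch integrins on and link them to actin formed the list with the most members measured. Of 31 tested, 4 were higher in B1a cells, 2 were higher in B2 cells and 25 did not pass, with a median log2 fold change of -0.07. The shares of all tested genes called in these directions were 4.24% and 1.5%. Tln1 (talin), which binds β tails to activate integrins, was the most even, with 938 and 924 CPM in B1a cells and 889 and 894 CPM in B2 cells (log2 fold change 0.06, SE 0.10, adjusted p = 0.800), a difference whose sign turned negative with upper quartile scaling and on the TPM scale. Dock2, a Rac activator of lymphocyte migration, measured 1740 and 1726 against 1336 and 1365 CPM (adjusted p = 0.0936). Regulators of Rap1, the GTPase that activates integrins, moved in both directions. Rap1gap, which inactivates Rap1, rose to 75.7 and 68.0 CPM from 2.60 and 1.25 CPM (log2 fold change 5.25, SE 0.46, adjusted p = 0.00388), and Sipa1, another GTPase-activating protein of Rap1, was lower in B1a cells, with 375 and 314 against 777 and 747 CPM (log2 fold change -1.15, SE 0.13, adjusted p = 0.008).

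The adaptor kinase Ptk2b (Pyk2) was also lower in B1a cells, with 157 and 167 against 629 and 617 CPM (log2 fold change -1.94, SE 0.12, adjusted p = 0.00138). Vcl (vinculin) rose to 118 and 106 CPM from 43.3 and 46.8 CPM (log2 fold change 1.31, SE 0.20, adjusted p = 0.0193). Sipa1l1 (log2 fold change 1.06, adjusted p = 0.0255) and Flna (filamin A, log2 fold change 0.56, adjusted p = 0.0324), the other genes higher in B1a cells, were chosen for mention after their values were seen. Rap1gap, Sipa1 and Ptk2b passed in all 15 alternative settings, Vcl in 11, Sipa1l1 in 13 and Flna in 10.

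Of 20 tested genes for partners and modifiers of CD44 and CD43, 2 were higher in each cell type (median log2 fold change -0.30). The whole tested set had 4.24% of its genes called toward B1a and 1.5% toward B2. Lgals1 encodes galectin-1, which binds CD43 glycans, and measured 78.0 and 110 CPM in B1a cells and 4.77 and 5.54 CPM in B2 cells (log2 fold change 4.18, SE 0.32, adjusted p = 0.00258). St3gal1, which adds sialic acid to the core O-glycans that CD43 carries, rose to 725 and 843 CPM from 332 and 306 CPM (log2 fold change 1.30, SE 0.13, adjusted p = 0.00513). Gcnt1, which branches the same glycans, fell to 8.07 and 11.3 CPM from 61.8 and 67.0 CPM (log2 fold change -2.73, SE 0.32, adjusted p = 0.00876). Epb4.1, a membrane skeleton protein, fell to 58.4 and 62.1 CPM from 202 and 197 CPM (log2 fold change -1.73, SE 0.15, adjusted p = 0.00411). Msn (moesin) and Ezr (ezrin), which tether CD44 and CD43 to actin, were the most abundant of the list that did not pass, with 1041 and 1075 against 1159 and 1163 CPM for Msn (adjusted p = 0.514) and 803 and 807 against 593 and 541 CPM for Ezr (adjusted p = 0.056). Ezr passed in 8 of 15 alternative settings, and the 4 called genes in all 15.

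Of 27 tested genes for other adhesion receptors, 6 were higher in B1a cells and 2 in B2 cells (median log2 fold change 0.46). These calls stand beside 4.24% and 1.5% of all tested genes. The median of the list fell on a scarce gene, with 17.3 and 0.54 CPM in B1a cells against 7.46 and 5.54 CPM (adjusted p = 0.907). Emb (embigin), an immunoglobulin-family glycoprotein, measured 49.0 and 68.3 CPM in B1a cells against 3.64 and 4.70 CPM (log2 fold change 3.80, SE 0.38, adjusted p = 0.00537). Cd9, a tetraspanin that associates with β1 integrins, measured 28.9 and 89.8 against 3.82 and 5.44 CPM (log2 fold change 3.67, SE 0.63, adjusted p = 0.03). Cd72, an inhibitory B-cell coreceptor, was lower, with 53.1 and 28.5 against 252 and 273 CPM (log2 fold change -2.68, SE 0.31, adjusted p = 0.00842), and so was the syndecan Sdc4, with 85.2 and 68.5 against 153 and 143 CPM (log2 fold change -0.95, SE 0.19, adjusted p = 0.0437). Pecam1 measured 248 and 266 against 333 and 287 CPM (adjusted p = 0.337). Cd9 passed in 12 and Sdc4 in 13 of 15 alternative settings, and Emb and Cd72 in all 15.

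**Figure D5:**
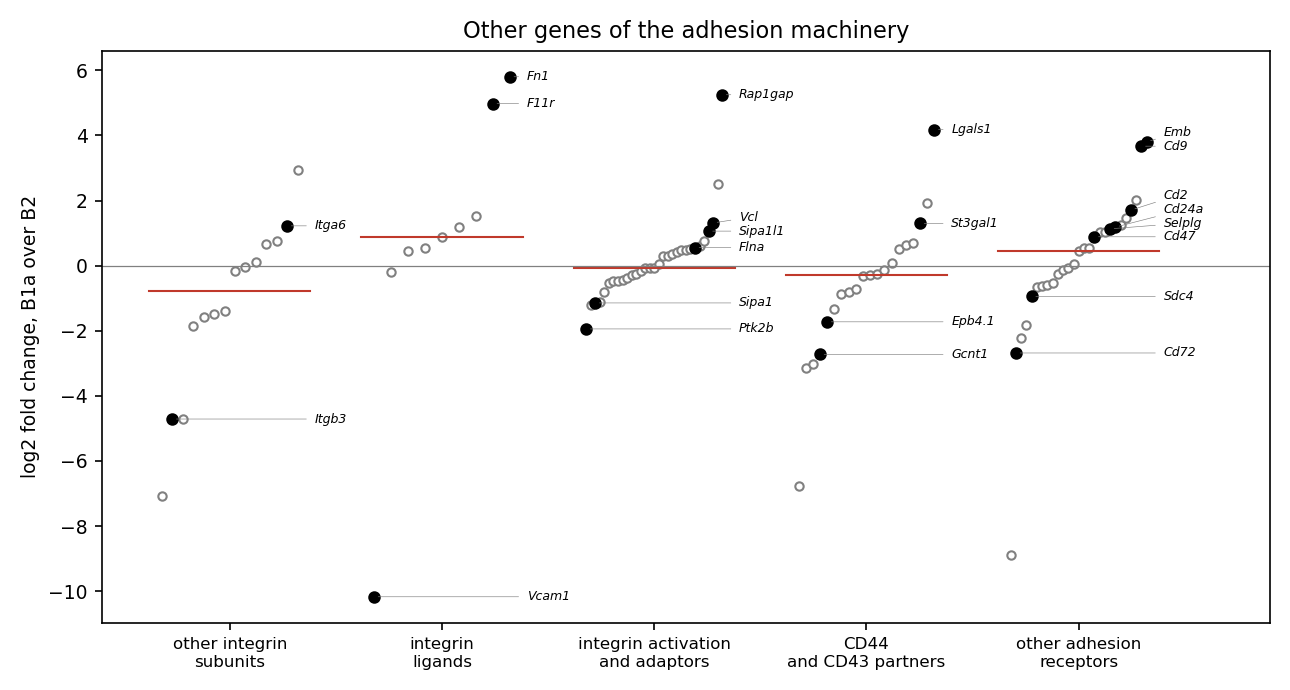
Each circle is the log2 fold change of B1a over B2 cells of 1 tested gene, by list (filled and named, adjusted p below 0.05; open, not below), and red lines mark the list medians, from -0.78 for other integrin subunits to 0.88 for integrin ligands. These outer medians rest on scarce genes. Fn1, Rap1gap, Lgals1 and Emb head their lists, and the lowest circle of every list except integrin activation and adaptors is a gene with at most 3 counts in each B1a library, whose position depends on the fit.

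The genes whose levels over the 4 libraries were closest to those of Itgam were Tubb6, Rbm47 and Sox5, at Euclidean distances of 1.01, 1.03 and 1.17 in log2 CPM. Sox5, a transcription factor, measured 203 and 180 CPM in B1a cells and 3.99 and 3.03 CPM in B2 cells. Tubb6, a β-tubulin, measured 100 and 133 CPM against 3.82 and 1.41 CPM, and Rbm47, an RNA-binding protein, 87.5 and 94.6 CPM against 5.55 and 2.72 CPM.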

How the data were processed

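The authors aligned the RNA-Seq reads to mm10, quantified RefSeq genes with RSEM (1.2.29 per the submitters' processing notes, another version in the methods) and deposited an expected count per gene entry, without normalization, in which reads matching several entries are divided. The authors also deposited TPM, the posterior mean count and a signal column with the posterior standard deviation of each count, which was at most 4.15% of the count for the 9 genes. FPKM was not used. Counts of the 21970 entries were added up per symbol (20599) and rounded. After filterByExpr, edgeR 4.0.16 was run (quasi-likelihood test, TMM scaling, R 4.3.3) with Benjamini-Hochberg adjustment at 0.05. Standard errors come from the test's F statistic. EBSeq, the test named in the methods, was not run here.

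The 9 genes, the gene lists and the alternatives were chosen with earlier results of these data known. Beside the 9 genes, the text names in each list the 2 called genes with the largest change in each direction at 10 CPM or more and the 2 most abundant genes not called, and the 3 genes nearest to Itgam. A gene that this rule gives is not reported here. Alternatives were DESeq2 1.42.0, limma-voom (limma 3.58.1), with and without weights, upper quartile factors, other count filters, limma on log2(TPM + 1) and log2(TPM + 0.1), entries not summed, a replicate block, a minimum fold change and each replicate left out in turn. Posterior mean counts were added after the data were seen. Floors cover counting error only.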

Additional observations from a re-analysis of the deposited data

How the results depend on the processing

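Each of the 9 genes kept its direction in every alternative, and of the values of single genes over the alternatives, 119 kept their side of the threshold, 14 newly passed it and 2 lost it. The number of genes called, 693 in the reported fit, was 1562 with DESeq2, 1415 with limma-voom and a weight for each cell type, 1141 without a filter beyond 1 count and 359 with log2(TPM + 0.1), where the number of the 9 genes called fell from 5 to 3 and Itgb7 (adjusted p = 0.0541) and Cd44 (adjusted p = 0.0506) lost their call. On the TPM scales the log2 fold changes of single genes differed from the reported fit. Their median shift was -0.25 with log2(TPM + 1) and -0.26 with log2(TPM + 0.1). Of the calls, 53.3% and 54.6% were then higher in B1a cells, against 73.9% in the reported fit. That share was 60% with the replicate block. The replicate block called 1481 genes and 7 of the 9. Deviations of same-numbered libraries from their group means correlated at -0.0417, so the libraries were taken to share only a number. With 1 replicate left out, between 539 and 6143 genes and between 5 and 8 of the 9 were called. Without the first B1a library, 3953 genes and 8 of the 9 were called, and without the second, 6143 genes and 7. The remaining B1a library was then assumed to vary like the B2 libraries, which are closer to each other. With 2 libraries per cell type and a biological coefficient of variation of 0.507, a missed threshold does not show equal levels. The values of Itgax rest on 15 to 130 counts a library.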
